A study of Mus musculus with 6 samples.

Results

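The genes described here carry the insulin and glucagon signals in hepatocytes: the insulin receptor Insr, its substrates Irs1 and Irs2, the kinases Akt1 and Akt2, the transcription factor Foxo1, the glucagon receptor Gcgr, the factor Creb1 and its coactivator Crtc2. They were chosen by name, as every probe whose gene symbol is 1 of these 9 genes, in the array tables or after an older name had been updated. This gave 19 of the 45281 probes on the array. Of the 19, 16 carried the current symbol and 3 an older clone name, D630014A15Rik for a pair of Insr probes and 4632407F12Rik for the only Crtc2 probe. Liver RNA came from 3 male mice deficient in Creb3l3 (KO) and 3 male wild-type littermates (WT), all of strain C57BL/6, fed normal chow and then fasted for 24 h, with 1 Illumina WG-6 bead array for each mouse. No fed group was measured, so all values are those of the fasted state. Creb3l3 encodes CREBH, a transcription factor held in the endoplasmic reticulum membrane of hepatocytes, and the KO label names no other allele. How the gene was inactivated, in which cells, and the age of the mice, are not stated in the labels.

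Insulin binds its receptor tyrosine kinase, which phosphorylates the substrates IRS1 and IRS2. They recruit a phosphoinositide kinase that activates AKT, and AKT phosphorylates FOXO1, which then leaves the nucleus, so that gluconeogenic genes are no longer driven. Glucagon acts through its receptor on cyclic AMP and protein kinase A, which phosphorylates CREB, while CRTC2 enters the nucleus and joins it. In fasting the glucagon side prevails, and Irs2 is known as a transcript that CREB with CRTC2, and also FOXO1, raise in the fasted liver.

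Sequences before the start sites are shown because the results turn on Irs2 and Gcgr, the measured genes with the smallest p-values, although neither was called. Foxo1 is shown as a tested gene with a change near 0 in 5 arrays and Irs1 as the paralog of Irs2. The 250 bases before each start were taken from RefSeq (build GRCm38.p6), in which 7 of the 9 genes matched, all but Insr and Crtc2, with 11 windows in all. Each runs 5′ to 3′ on the gene's own strand. Capitals mark the E-box CACGTG, the core AAACA that FOXO factors bind (TGTTT on the other strand), and the short site TGACG of the cyclic AMP response element (CGTCA on the other strand). Irs2 lies on chromosome 8, minus strand, and the window is chr8:11008930-11009179. Irs1 is at chr1:82291440-82291689, minus strand, Gcgr at chr11:120530477-120530726, plus strand, and Foxo1 at chr3:52268087-52268336, plus strand.
Irs2: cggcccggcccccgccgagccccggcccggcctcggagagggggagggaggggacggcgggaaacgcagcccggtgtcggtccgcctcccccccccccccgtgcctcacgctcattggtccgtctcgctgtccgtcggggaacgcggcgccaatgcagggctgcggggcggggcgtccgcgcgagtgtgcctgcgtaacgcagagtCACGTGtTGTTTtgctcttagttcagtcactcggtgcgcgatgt
Irs1: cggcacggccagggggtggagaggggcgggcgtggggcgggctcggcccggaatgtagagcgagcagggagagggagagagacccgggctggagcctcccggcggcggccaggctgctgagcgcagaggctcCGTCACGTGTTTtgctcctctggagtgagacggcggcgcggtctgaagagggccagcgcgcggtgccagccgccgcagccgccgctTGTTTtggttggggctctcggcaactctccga
Gcgr: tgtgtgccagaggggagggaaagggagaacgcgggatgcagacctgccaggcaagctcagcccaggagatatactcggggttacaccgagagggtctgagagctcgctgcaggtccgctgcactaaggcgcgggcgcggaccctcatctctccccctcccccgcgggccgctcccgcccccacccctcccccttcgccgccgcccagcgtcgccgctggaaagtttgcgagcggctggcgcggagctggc
Foxo1: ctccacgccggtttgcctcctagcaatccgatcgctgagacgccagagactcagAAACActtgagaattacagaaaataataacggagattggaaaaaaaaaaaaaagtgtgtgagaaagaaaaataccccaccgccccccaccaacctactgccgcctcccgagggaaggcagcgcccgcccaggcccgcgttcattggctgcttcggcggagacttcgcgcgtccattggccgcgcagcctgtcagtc
In the Irs2 window an E-box begins 44 bases before the start and a FOXO core 37 bases before it, and the window holds no short site. In the Irs1 window the same pair begins 115 and 111 bases before the start, where it overlaps, and a short site overlaps the E-box. A further FOXO core lies nearer the Irs1 start. Of all 32851 windows, 6.02% hold the E-box, 46.4% the FOXO core, 17.8% the short site and 1.55% the full element TGACGTCA, which contains the short site on both strands. The full element was in 0 of the 11 windows of these genes. The Gcgr window holds none of the marked motifs, and the Foxo1 window holds 1 FOXO core. The Gcgr window lies inside the annotated span of the gene, chr11:120529185-120538989, before a start within that span. Bases before the span itself were not searched. These matches describe letters in a window and are no measure of binding.

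The arrays were unequal in brightness. A detection p under 0.05, the software's test of a probe against the array's negative control beads, held for 11846, 15867 and 4302 probes in KO replicates 1, 2 and 3, and for 15504 to 16224 in the WT livers. Across probes, which are not independent replicates, Pearson's r between KO replicate 3 and each other liver was 0.676 to 0.697, and among the other 5 livers it was 0.971 to 0.992. Values are therefore given for the 5 arrays without KO replicate 3, with those of all 6 beside them, a choice made with earlier results of these data known. Creb3l3 itself, the targeted gene, had deposited signals of 148, 283 and 87.9 in KO livers and 1201, 949 and 929 in WT livers. Its log2 change was -2.32 ± 0.15 (SE) in the 5 arrays, where it was called (limma, adjusted p = 0.00271), and -2.72 ± 0.39 in the 6, where it was not (adjusted p = 0.574). Where its probe lies relative to the deleted part is not stated in the labels.

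Of the 9 genes, 4 gave a measurable signal, Insr, Irs2, Foxo1 and Gcgr, and 5 did not. A probe was tested where 3 or more arrays had a detection p under 0.05. This held for 5 of the 19 probes (26.3%), against 14345 of all 45281 (31.7%). The other 14 probes lay between 0.876 and 1.14 times the median of their array, and 8 of their 84 readings passed detection. Akt1 and both probes of Akt2, the kinases that relay the insulin signal, were detected on 0 of 6 arrays. The Akt1 signals were 86.6, 92.1 and 82.5 in KO livers and 96.0, 89.2 and 92.3 in WT livers, and those of Akt2 ran from 80.4 to 92.0 in KO livers and from 86.2 to 90.8 in WT livers. Readings of the 2 genes thus lay at the level of the array background in both genotypes.

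Irs1, the other insulin receptor substrate, was detected on 1 WT array, with signals of 95.2, 94.4 and 80.0 in KO livers and 90.1, 100.2 and 92.2 in WT livers. Creb1, the factor phosphorylated after glucagon, had 6 probes, whose signals ran from 82.3 to 99.6 in KO livers and from 82.9 to 98.0 in WT livers, with 2 of 36 readings detected. Both were on KO arrays and at the same probe. Crtc2, the coactivator, had signals of 85.7, 100.2 and 76.9 in KO livers and 99.9, 90.3 and 86.5 in WT livers, detected on 1 array of each group. The groups overlapped in Irs1 and Crtc2, and no fold change can be given for any of these 5 genes. The probes named Insr in the tables, a pair beside those with the clone name, were detected on 0 and 1 of 6 arrays, so that the values given for Insr rest on the clone-named probes alone. Those probes were assigned to Insr only through a synonym in the RefSeq table, and whether they bind Insr transcripts was not checked, since no probe sequences were used here. The plot of all probes against their array median shows these readings.

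**Figure D1:**
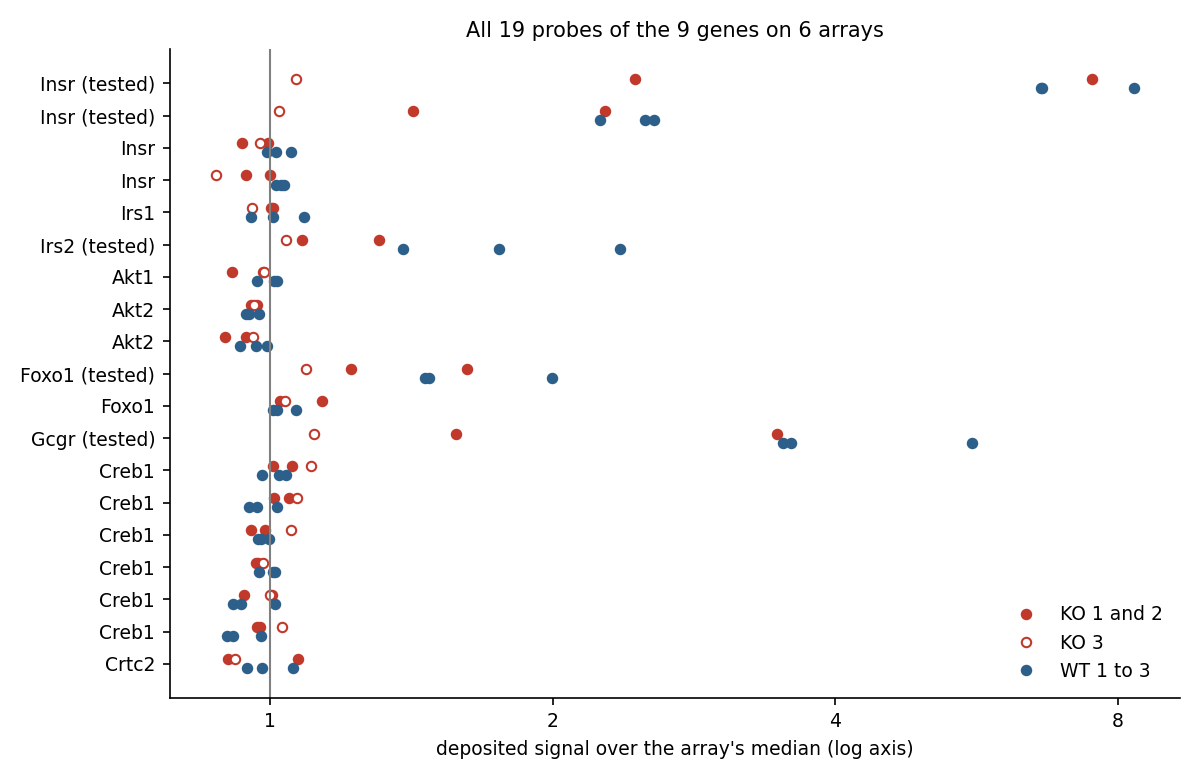
Deposited signal of each of the 19 probes divided by the median signal of its array (log axis), with KO arrays in red above WT arrays in blue for each probe and KO replicate 3 as open circles. The 5 tested probes, of Insr, Irs2, Foxo1 and Gcgr, extend to the right, and the other 14 stay between 0.876 and 1.14.

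Irs2, the substrate that hepatocytes regulate with feeding, had the largest difference among the measured genes. Its deposited signals were 103, 122 and 87.1 in KO livers, where KO replicate 3 was not detected, and 223, 128 and 160 in WT livers. All KO readings lay below all WT readings, and the closest pair was KO replicate 2 and WT replicate 2, at 122 and 128. After normalization the log2 signals were 5.19 and 5.35 in KO replicates 1 and 2, against 6.86, 5.76 and 6.43 in WT replicates 1, 2 and 3. The WT livers spread over more than 1 log2 unit, about as much as the groups differed. The means were 5.27 ± 0.11 (SD, n = 2) in KO livers and 6.35 ± 0.55 (SD, n = 3) in WT livers. The log2 change was -1.08 ± 0.30 (SE), with a 95% confidence interval of -1.77 to -0.40, or 2.12-fold lower in KO livers. Irs2 was not called (limma, adjusted p = 0.252 over all 14345 probes), although its unadjusted p was under 0.05. In all 6 arrays the change was -0.94 ± 0.31 (adjusted p = 0.653), with the 3 KO livers at 5.08, 5.22 and 5.36 and the lowest WT liver at 5.60. The signals stood at 1.04 to 1.31 times the array median in KO livers and 1.39 to 2.36 times in WT livers, so the size of the change rests on the background correction. It was -0.48 without that correction.

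Gcgr, the glucagon receptor, was the other gene whose confidence interval left out 0 in the 5 arrays. Deposited signals were 150, 324 and 93.3 in KO livers and 528, 324 and 328 in WT livers. KO replicate 2 and WT replicates 2 and 3 thus had almost the same signal, on arrays that differed in overall brightness. Normalized log2 signals were 7.50 and 7.60 in KO replicates 1 and 2, against 8.43, 7.95 and 7.96 in WT replicates 1, 2 and 3. The groups did not overlap on this scale. The means were 7.55 ± 0.07 (SD, n = 2) in KO livers and 8.11 ± 0.27 (SD, n = 3) in WT livers, a log2 change of -0.56 ± 0.20 (SE; 95% confidence interval -1.02 to -0.11). Gcgr was not called (limma, adjusted p = 0.355). With all 6 arrays the change was -0.10 ± 0.43 (adjusted p = 0.895), and KO replicate 3 stood at 8.67, above every WT liver, although its deposited signal was the lowest of the 6. Within each array Gcgr stood at percentile 91.7, 92.1 and 95.9 of all probes in KO replicates 1, 2 and 3, and at 94.8, 93.4 and 93.4 in WT replicates 1, 2 and 3.

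The clone-named probes assigned to Insr, the receptor tyrosine kinase, did not pass the test in the 5 arrays. The brighter of them had deposited signals of 232, 703 and 89.3 in KO livers and 784, 609 and 608 in WT livers, and KO replicate 3 was not detected. KO replicate 2 lay inside the WT range and KO replicate 1, on a dim array, far below it. After normalization the log2 signals were 8.76 and 8.96 in KO replicates 1 and 2, against 9.06, 9.04 and 9.03 in WT replicates 1, 2 and 3. The 3 WT livers agreed within 0.02 (SD), and both KO livers lay below them. The change was -0.19 ± 0.16 (SE; 95% confidence interval -0.55 to 0.17), which did not pass (limma, adjusted p = 0.645). The dimmer probe gave the same change, -0.19 ± 0.18, with KO livers at 7.08 and 6.78 and WT livers at 7.03, 7.29 and 7.04, and there the groups overlapped. In all 6 arrays the brighter probe had a change of -0.78 ± 0.51 (adjusted p = 0.653).

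Foxo1, the forkhead factor that drives gluconeogenic genes when insulin is low, showed no difference of means in the 5 arrays. Deposited signals were 116, 152 and 91.5 in KO livers and 188, 136 and 134 in WT livers. The normalized log2 signals were 6.29 and 5.97 in KO replicates 1 and 2, against 6.50, 5.97 and 5.92 in WT replicates 1, 2 and 3, so the groups overlapped fully. The log2 change was -0.0013 ± 0.22 (SE), with a 95% confidence interval of -0.51 to 0.51 that leaves room for a 1.42-fold change in either direction (limma, adjusted p = 0.999). With all 6 arrays it was 0.68 ± 0.60 (adjusted p = 0.653), where KO replicate 3 stood at 8.0 and the other KO livers at 6.10 and 5.80. The second Foxo1 probe was detected on 2 of 6 arrays and was not tested.

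**Figure D2:**
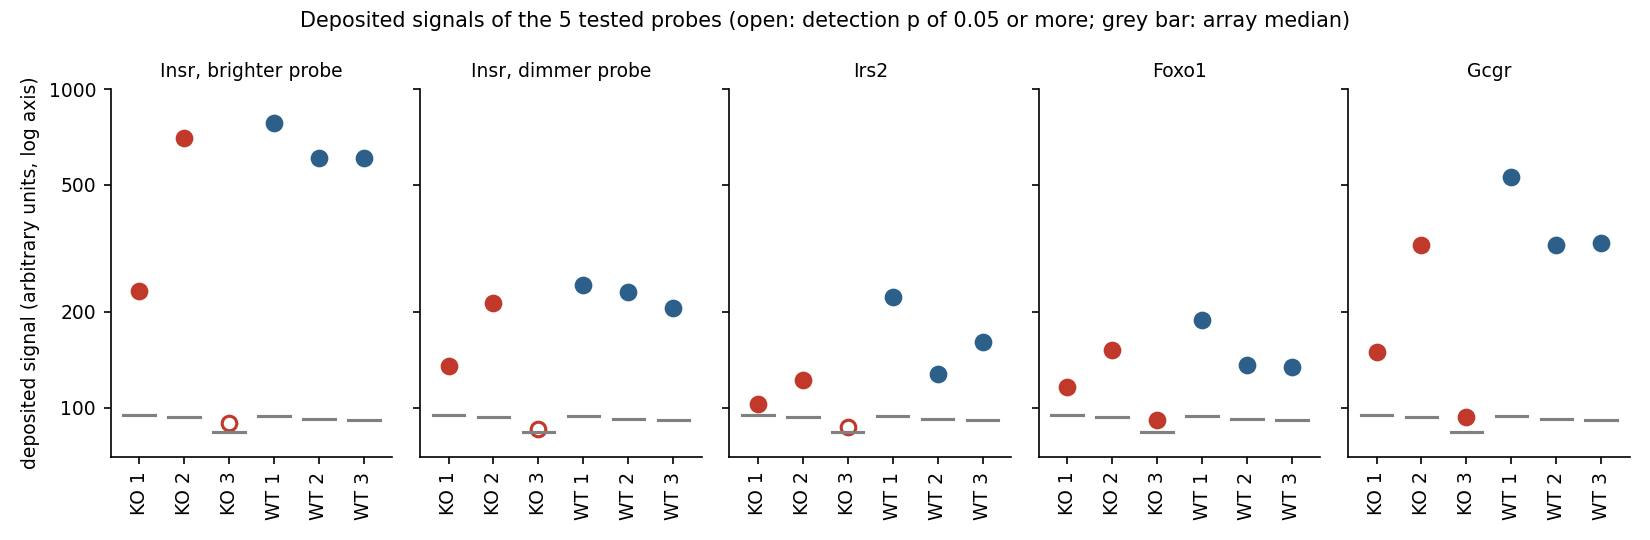
Deposited signals (arbitrary units, log axis) of the 5 tested probes on the 3 KO arrays (red) and the 3 WT arrays (blue). Open circles had a detection p of 0.05 or more, grey bars are array medians. KO replicate 3 lies close to its array median at every probe, and WT replicate 1 is the highest array at 5 of 5 probes.

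**Figure D3:**
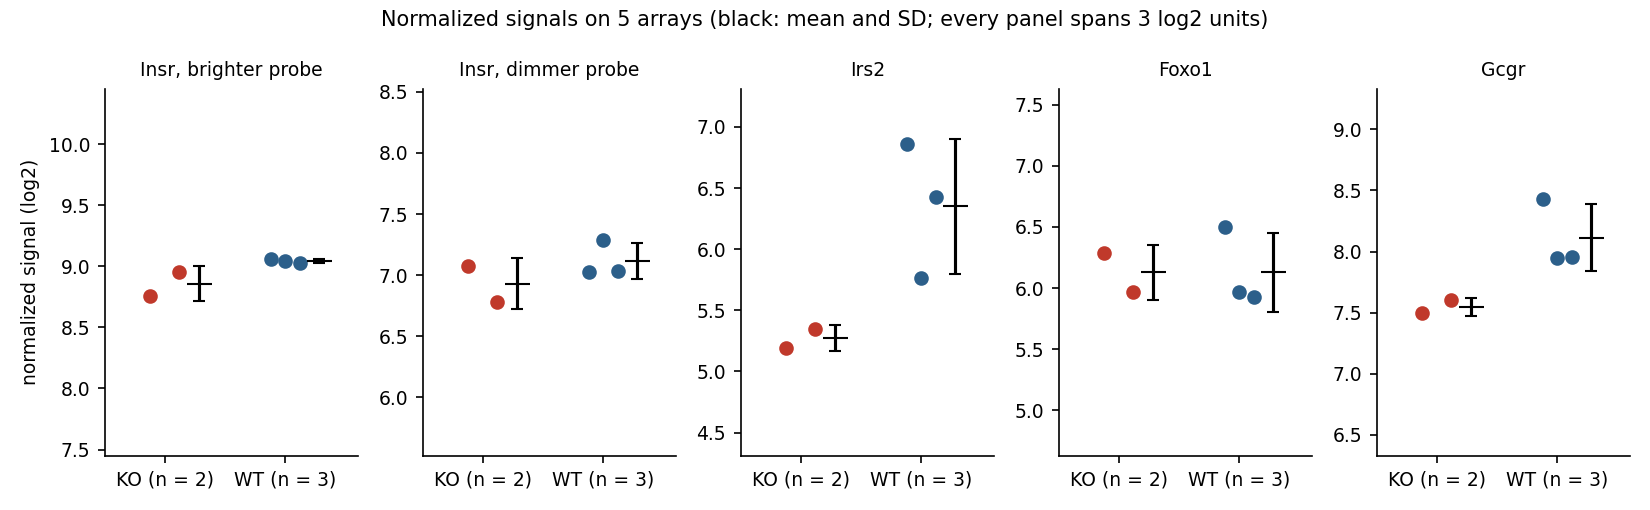
Normalized log2 signals of the same probes on 5 arrays, KO livers in red and WT livers in blue, with mean and SD in black. The groups do not overlap at Irs2, Gcgr and the brighter Insr probe, and they overlap at Foxo1 and the dimmer Insr probe.

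Across the tested probes of these genes limma called 0 of 5 in the 5 arrays, where 0.342% of all tested probes were called, and 0 of 5 in the 6 arrays, where 0% were. At an unadjusted p under 0.05, 2 of the 4 genes, Irs2 and Gcgr, were lower in the 5 arrays, where 7.02% of all tested genes were lower at that level, and 1, Irs2, in the 6, where 3.09% were. Every KO liver lay below every WT liver in 3 of the 4 genes in the 5 arrays. This held for 15.3% of all tested genes there, and in the 6 arrays for 2 of the 4 and for 12.4% of all. In bulk liver, fewer hepatocytes and less RNA of a gene per hepatocyte cannot be told apart. The plot of changes sets both fits beside each other.

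**Figure D4:**
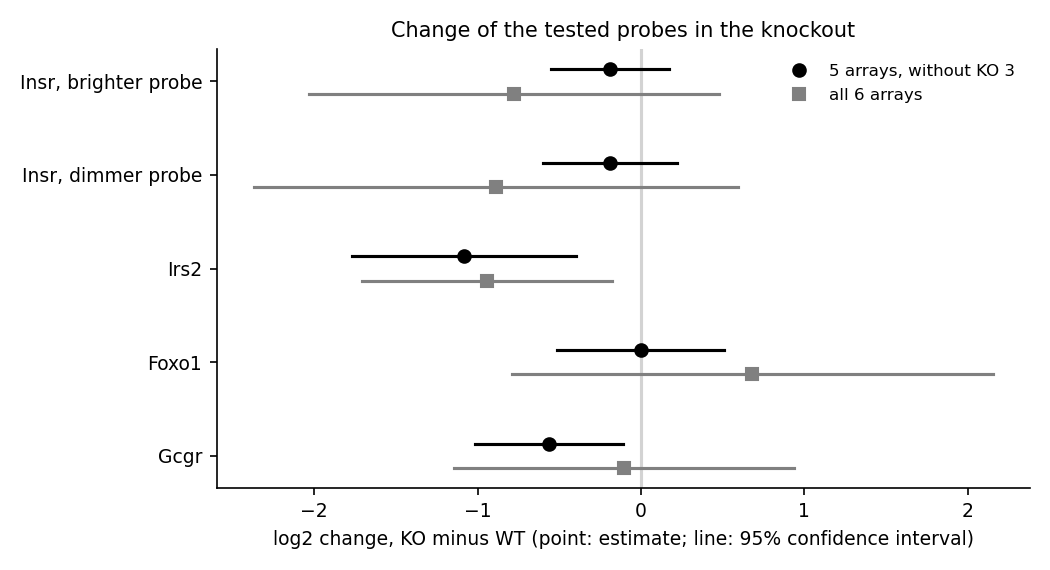
Log2 change, KO minus WT, of the 5 tested probes with 95% confidence intervals, in the 5 arrays (black circles) and all 6 arrays (grey squares). The interval of Irs2 leaves out 0 in both fits, from -1.77 to -0.40 in the 5 arrays, that of Gcgr in the 5 arrays only, and those of Insr and Foxo1 in neither.

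By the rule for genes of like pattern, the 3 transcripts whose profile over the 5 arrays was closest to that of Irs2 were LOC236060 (Pearson's r = 0.998), Zkscan3 (0.996) and Iqgap2 (0.995). Of 10037 genes compared, 14 had an r over 0.99. With 5 arrays that share their normalization, this is a description only. The log2 signals of LOC236060 were 10.49 and 10.65 in KO replicates 1 and 2, against 12.10, 11.12 and 11.76 in WT replicates 1, 2 and 3, and it was not called (limma, adjusted p = 0.226).

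Around these genes, none of the other tested components of insulin signal transduction was called. The list holds 43 further genes, of which 33 were tested, with 0 called higher and 0 lower in limma, where 0.339% of all tested genes were called, 0.0697% higher and 0.269% lower. Without adjustment, at a p under 0.05, 0 were higher and 5 lower, where 4.95% and 7.02% of all tested genes were. The median log2 change was -0.02, beside -0.01 over all tested genes. Grb14, an adaptor that inhibits the insulin receptor, had the smallest p, with 7.25 ± 0.21 (SD, n = 2) in KO livers and 7.90 ± 0.07 (SD, n = 3) in WT livers, a change of -0.65 ± 0.17 (SE; adjusted p = 0.233). The pseudokinase Trib3, which binds and inhibits AKT, stood at -0.53 ± 0.20 (adjusted p = 0.373), and its second probe at -0.02. Ceacam1, a membrane protein that promotes insulin clearance, had -0.38 ± 0.15, and Socs3, an inhibitor of cytokine and insulin signalling, -0.62 ± 0.26 (adjusted p of 0.393 and 0.399). The other tested probes of Ceacam1 stood at -0.08 and -0.34. In all 6 arrays 0 of 34 tested genes were called, with a median of -0.27, the same as that of all tested genes. There 1 was lower at an unadjusted p under 0.05 in limma, where 3.09% of all tested genes were.

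On the glucagon side, 36 genes of cyclic AMP signalling were listed and 22 tested, with 0 called in either direction. Their median was -0.09, beside -0.01 over all tested genes. At an unadjusted p under 0.05 limma gave 0 higher and 2 lower, where 4.95% and 7.02% of all tested genes were. Those 2 were Gnas, the stimulatory G protein subunit that couples the glucagon receptor to adenylyl cyclase, at -0.48 ± 0.17 (SE; adjusted p = 0.349), and Rapgef4, an exchange factor activated directly by cyclic AMP, at -0.56 ± 0.22 (adjusted p = 0.393). For Gnas the KO livers averaged 8.28 ± 0.09 (SD, n = 2) and the WT livers 8.77 ± 0.14 (SD, n = 3). The other tested probes of Gnas stood at -0.27 and -0.13. The phosphodiesterase Pde4d, which degrades cyclic AMP, had a change of 0.50 ± 0.23 and was detected on 1 of 3 WT arrays. The anchoring protein Akap1 had -0.30 ± 0.15. In all 6 arrays 0 of 22 were called, with a median of -0.42, beside -0.27 over all tested genes. There 1 was lower at an unadjusted p under 0.05 in limma, where 3.09% of all tested genes were.

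Coactivators, kinases and relatives of CREB numbered 23, of which 16 were tested and 0 called. At an unadjusted p under 0.05 limma gave 0 higher and 1 lower, where 4.95% and 7.02% of all tested genes were. The lower one was Cop1, a ubiquitin ligase that targets CRTC2, at -0.43 ± 0.16 (SE, adjusted p = 0.366). The other tested probes of Cop1 stood at -0.60 and -0.16. The probe at -0.60 was detected on 0 KO and 3 WT arrays, so it passed the detection filter through WT livers alone. Prkaa2, the catalytic subunit of the AMP-activated kinase, stood at -0.37 ± 0.18 and the methyltransferase Prmt5 at 0.32 ± 0.16. Sik1, a kinase that retains CRTC2 in the cytoplasm, stood at -0.59 ± 0.33. Sik1 was detected on 1 of 2 KO arrays, with KO livers at 4.22 and 4.94 and WT livers at 4.94, 4.77 and 5.78. By sign 3 lay above 0 and 13 below, beside 52.2% of all tested genes below 0. The median was -0.14 in the 5 arrays, beside -0.01 over all tested genes, and -0.43 in the 6, beside -0.27. In the 6 arrays 0 of 16 were called. There 0 had an unadjusted p under 0.05 in limma, a level at which 3.09% of all tested genes were lower.

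Among transcripts downstream of the signals, 1 was called. Of 21 genes known to be induced by FOXO1 or raised in fasting, 16 were tested, with 0 called higher and 1 lower, where 0.269% of all tested genes were called lower. Without adjustment limma gave 1 higher and 4 lower at a p under 0.05, where 4.95% and 7.02% of all tested genes were. By sign 12 lay below 0 and 4 above, beside 52.2% of all tested genes below 0. The median was -0.38, beside -0.01 over all tested genes. Pck1, the rate-limiting enzyme of gluconeogenesis, fell. Its log2 signals were 8.83 and 9.39 in KO replicates 1 and 2, against 10.77, 10.76 and 11.003 in WT replicates 1, 2 and 3, a change of -1.73 ± 0.21 (SE), or 3.33-fold (limma, adjusted p = 0.0227). Its second probe was also called, at -1.12. The call was lost in all 6 arrays, where the change was -3.19 (adjusted p = 0.653), and without any 1 of the WT mice.

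Igfbp1, a secreted binding protein of insulin-like growth factors that insulin represses, had 6.73 and 7.89 in KO replicates 1 and 2, against 8.58, 8.39 and 8.84 in WT replicates 1, 2 and 3. All KO values lay below all WT values, the KO livers differed from each other by more than 1 log2 unit, and the change of -1.29 ± 0.32 (SE) was not called (limma, adjusted p = 0.224). G6pc, the catalytic subunit that releases free glucose, had 10.59 and 10.84 in KO livers, against 11.58, 11.10 and 11.81 in WT livers, a change of -0.78 ± 0.23 (adjusted p = 0.29). Txnip, an arrestin-like protein that rises with glucose, stood at -0.54 ± 0.20 (adjusted p = 0.362). Sds, a serine dehydratase of amino acid breakdown, ran the other way, with 11.03 ± 0.41 (SD, n = 2) in KO livers and 10.31 ± 0.49 (SD, n = 3) in WT livers, a change of 0.73 ± 0.30 (SE; limma, adjusted p = 0.398). It was named after its value was seen, as the 1 gene of the list with a higher value at an unadjusted p under 0.05. In the 6 arrays 0 of the 16 were called. The median was -0.64 there, beside -0.27 over all tested genes, of which 71.6% lay below 0. There 3 were lower at an unadjusted p under 0.05 in limma, where 3.09% of all tested genes were.

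Of 17 genes known to be raised by insulin or feeding, 12 were tested and 0 called, and at an unadjusted p under 0.05 limma gave 4 higher and 2 lower, where 4.95% and 7.02% of all tested genes were. The median was -0.10, beside -0.01 over all tested genes. Gckr stood at 0.86 ± 0.26 (adjusted p = 0.298) in the 5 arrays and at -0.53 in the 6. The cyclin Ccnd1 had 0.59 ± 0.18 at its brightest probe and -0.30 and -0.27 at the others, and the immediate early factor Egr1 had -1.35 ± 0.45 (adjusted p = 0.341). In the 6 arrays 0 of 12 were called, with a median of -0.50, beside -0.27 over all tested genes. Of the 12, 1 rose and 1 fell there with an unadjusted limma p below 0.05. Over all tested genes 3.09% fell at that level, and the share that rose is not given.

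**Figure D5:**
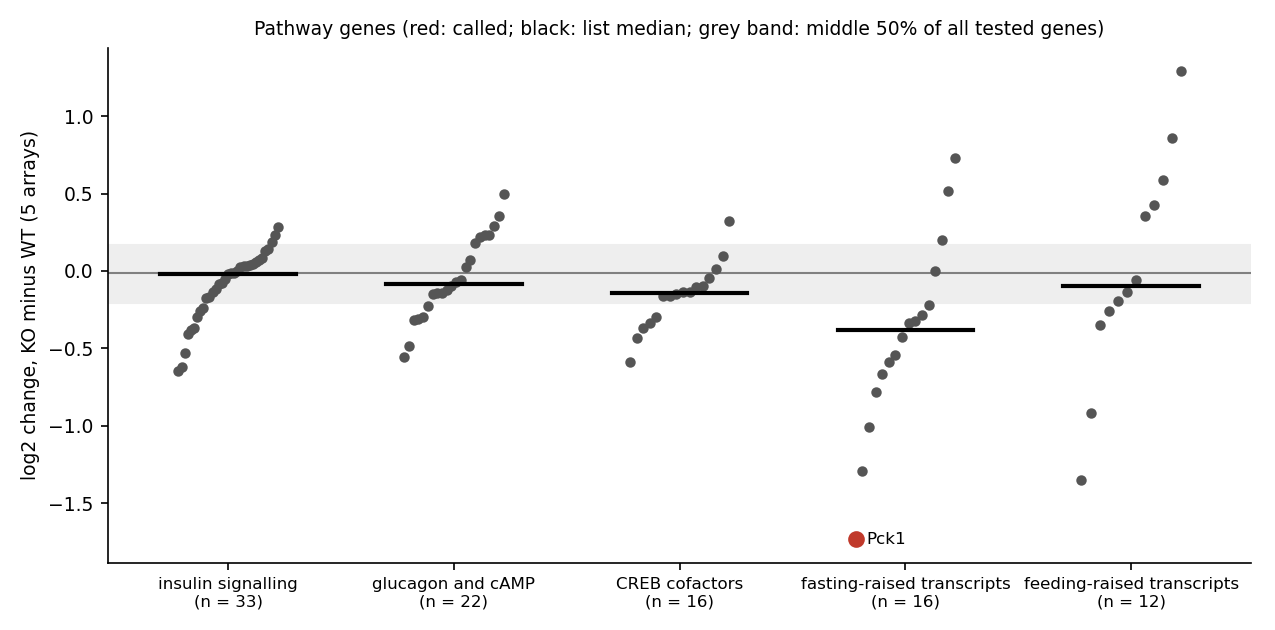
Log2 change, KO minus WT, in the 5 arrays for the tested genes of the lists of insulin signalling, glucagon and cyclic AMP signalling, CREB cofactors, fasting-raised and feeding-raised transcripts, 1 point a gene. Black bars are list medians and the grey band holds the middle 50% of all tested genes. Pck1, in red, was called, at -1.73, and the other genes were not.

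Markers of other liver cells were read on the same arrays. A marker counts as detected here if at least 1 of the 5 arrays had a detection p under 0.05. On all 5 arrays 8 hepatocyte, 9 Kupffer cell and macrophage, and 3 lymphocyte and neutrophil markers passed. So did 7 endothelial, 2 stellate cell and fibroblast, 3 erythroid and 2 cholangiocyte markers, and 1 of pancreas and adipose tissue. Of 9 hepatocyte markers 9 were detected, with summed normalized signals of 75652 to 75757 in KO livers and 76179 to 79121 in WT livers. All 9 markers of Kupffer cells and macrophages were detected, and their sum was 2286 to 2458 in KO livers and 1973 to 2246 in WT livers. Of 8 lymphocyte and neutrophil markers 6 were detected, not Cd3e and Cd8a, with sums of 278 to 364 in KO livers and 209 to 222 in WT livers. In these 3 lists the sums of the groups did not overlap, hepatocyte sums being lower and the others higher in KO livers. How often sums of other gene lists separate was not computed. Among single genes, every KO liver lay below every WT liver in 15.3% of those tested. The lymphocyte and neutrophil sum includes markers at background. All 3 tested markers of that list lay above 0, but S100a8 was 5.48 in KO replicate 1, below every WT liver, and 7.25 in KO replicate 2. The hepatocyte sum is weighted to its brightest genes, Ttr and Apoa1. Of the 8 hepatocyte markers tested, 4 lay above 0 and 4 below. Sums of endothelial markers (7 of 8 detected, not Kdr) were 1683 to 2025 in KO livers and 1955 to 2142 in WT livers. Those of stellate cells and fibroblasts (5 of 8, not Col1a2, Pdgfrb and Lrat) were 4032 to 4690 in KO livers and 3901 to 4285 in WT livers, and erythroid sums (4 of 5) were 9275 to 23340 and 21509 to 26257 in the same order. Of 6 cholangiocyte markers 2 were detected, not Krt7, Krt19, Epcam and Cftr, with sums of 639 to 708 in KO livers and 443 to 665 in WT livers. Of 8 markers of pancreas and adipose tissue 4 were detected, not Ins2, Gcg, Cpa1 and Plin1. Ins1, Adipoq and Lep passed on 1 KO array each and on 0 WT arrays, and Cela1 on all 5. The sums were 260 to 351 in KO livers and 257 to 285 in WT livers. In the 5 arrays limma called 0 markers in these lists. Unadjusted p-values under 0.05 came from 2 Kupffer cell and macrophage markers and 1 lymphocyte and neutrophil marker, higher in KO livers, from 1 hepatocyte and 1 stellate marker, lower, and from 1 endothelial marker in each direction. Of all tested genes 4.95% were higher and 7.02% lower at that level. The part of any of these markers in the values of Irs2 and Gcgr was not tested.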

How the data were processed

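Per the labels, total RNA of 6 fasted mouse livers was labelled with biotin and hybridised to Illumina bead arrays, 1 per mouse. For each probe the deposited tables give an intensity, the mean bead signal, which by its values was neither normalized nor background-subtracted, and a detection p-value that the authors' software (BeadStudio 3, per the submitters' processing notes) computed per array. The authors' value table holds intensity values whose columns share 1 distribution. Its columns matched the quantile-normalized array signals within 0.0179 on the log2 scale, with those of WT replicates 2 and 3 exchanged. Its scale is linear, without centring, and the direction needs no settling. Its column medians were 91.7, 91.7 and 91.6 in KO and 91.7 in the 3 WT columns. It served as an alternative only, and its normalization method is not stated in the labels.

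Groups and replicate numbers came from the sample titles. Gene symbols were updated through a RefSeq gene table of assembly GRCm38.p6. A current symbol stood on 27760 probes, 7994 had an older one that was replaced, and 9527 had a name without a match. Background correction and scaling followed neqc (limma 3.58.1, R 4.3.3): normexp correction (offset 16), whose background parameters were inferred from detection p-values, quantile normalization and log2. Where 3 or more arrays had a detection p under 0.05, the probe was fitted with genotype as the only term (lmFit, eBayes), two-sided, with Benjamini-Hochberg adjustment over 14345 probes for 5 arrays and 14494 for 6, and called at an adjusted p under 0.05. The probe of highest mean signal stood for its gene. Named genes were all probes of the 9 genes, Creb3l3, called members and the 4 smallest p-values of each list, and the 3 genes most like the member with the smallest p. Some genes that the rule would name are not reported here. The number of arrays limits the precision. The steps were tested on simulated data, and figures were drawn with matplotlib 3.10.9. The genes, the lists, the omission of KO replicate 3 and the tests were chosen with earlier results of these data known.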

Additional observations from a re-analysis of the deposited data

How the results depend on the processing

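In the 5 arrays limma called 49 probes, 9 higher and 40 lower in KO livers. The count was 0 in all 6 arrays, 83 with cyclic loess, 4 with median scaling, 85 without background correction, 1 without a detection filter, 83 from the authors' value table, 122 with a trended and robust variance and 32 with array weights, and leaving out 1 mouse gave 9 to 2234. The highest of these was without KO replicate 2, and the counts without WT replicates 1, 2 and 3 were 15, 9 and 9. In all 6 arrays the count of 0 (558 probes at an unadjusted p under 0.05) became 3 with cyclic loess, 5 with a trended and robust variance and 2832 with array weights, and 0 to 49 when 1 mouse was left out, the 49 being without KO replicate 3. With median scaling the median log2 change over the probes was -0.43 (5 arrays) and -0.87 (6 arrays).

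No sign was seen that the replicate numbers pair the mice, although correlations over so few livers cannot exclude it. In the 5 arrays the deviations of the KO pair mirror each other by construction, and in the 6 KO replicate 3 stood apart. In the 6 arrays same-numbered livers deviated from their group means with correlations of -0.0452, -0.0482 and 0.0368, and KO replicate 1 correlated best with WT replicate 2, at 0.0753. With the replicate number as a block 47 probes were called in the 5 arrays, and with the replicate block in all 6 arrays 0. None of the 9 genes was called under either block.

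Irs2, Gcgr and Insr stayed lower under all 16 alternatives to the 5 arrays, with changes of -1.37 to -0.43 for Irs2, -1.21 to -0.10 for Gcgr and -0.93 to -0.09 for Insr, and 0 of the 16 called any of them, with adjusted p-values of 0.0658 to 0.79, 0.0866 to 0.918 and 0.202 to 0.997. Not every alternative could change the direction. Those that altered only the detection filter or the variance model left the change as it was, and the block with all 6 arrays repeated the 6-array change. The 16 also include fits that leave 1 KO array. Gcgr stood at -0.40 and Irs2 at -0.80 without WT replicate 1. In the 6 arrays with array weights Irs2 (adjusted p = 0.00962) and Gcgr (0.0465) were called, a setting under which 2832 probes were. Foxo1 turned to 0.68 in all 6 arrays, with and without the block, 0.0245 with array weights, and ran from -0.17 without KO replicate 1 over 0.15 without KO replicate 2 to 0.18 without WT replicate 1. The 6-array change of Foxo1 ran from -0.0013 without KO replicate 3 to 1.08 without KO replicate 2 and turned to -0.83 with median scaling, and that of Gcgr ran from -0.56 without KO replicate 3 to 0.15 without KO replicate 1, with 0.0964 without KO replicate 2 and 0.0512 without WT replicate 1. Ccnd1 (-0.13), Gckr (-0.53) and Prkaa2 (0.27) turned in all 6 arrays, with and without the block, and Prmt5 (-0.20) with median scaling.

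The alternatives of the lists were chosen after seeing the data. The 1 called fasting-raised gene was lost (0) in all 6 arrays with and without the block, with median scaling and with no detection filter. It was also lost without any 1 of the WT mice. Feeding-raised genes had 1 call with cyclic loess and 1 with a trended and robust variance. Leaving out 1 WT mouse gave 0 calls for them, for insulin signalling, for glucagon and cyclic AMP and for CREB cofactors. Leaving out a KO mouse leaves 1 KO array, so no count is given for those fits. Pck1 kept its call under 9 of 16 alternatives. Fits with 1 KO array are among those 16. The cause of the changes between settings was not tested.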

Other observations

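The place of KO replicate 3 among the 6 arrays turned with the scale at some probes. The deposited signals of Gcgr, Foxo1 and the Creb1 probe with 2 detected readings were 93.3, 91.5 and 92.6 on that array. These were the lowest of the 6 arrays for Gcgr and Foxo1. In the authors' value table, whose columns share 1 distribution, the same array holds 480 for Gcgr, 328 for Foxo1 and 422 for that Creb1 probe, the highest of the 6 in each case. The other KO columns of that table hold 228 and 239 for Gcgr, 142 and 129 for Foxo1 and 92.5 and 95.7 for Creb1, and the WT columns hold 364, 284 and 284 for Gcgr, 152, 127 and 129 for Foxo1 and up to 94.7 for Creb1. Irs2 turned among the KO columns only. Its deposited signal on KO replicate 3, 87.1, was the lowest of the 6 and was not detected. In the authors' values that array holds 113, above 107 and 110 in the other KO columns and below 122 to 174 in the WT columns.

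Within each array, a rank that no scaling changes, Irs2 stood at percentile 76.8, 78.3 and 79.8 of all probes in KO replicates 1, 2 and 3, and at 88.7, 81.9 and 86.3 in WT replicates 1, 2 and 3. The brighter Insr probe stood at 95.6, 96.0 and 89.7 in KO livers and at 96.2 in each WT liver. Creb1, with 6 probes, reached percentile 95.4 on KO replicate 3 at 1 probe, which stood at 54.0 and 65.4 in KO replicates 1 and 2 and at 62.5, 39.8 and 59.0 in WT replicates 1, 2 and 3, while its other 5 probes on KO replicate 3 reached at most 89.9.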
